A study of Mus musculus with 12 samples.

Results

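This section describes 38 genes of the antiviral arm of the type I interferon response: RNA-binding IFIT proteins, the ISG15 modifier and its enzymes, the OAS family, Mx GTPases, and other effectors such as Rsad2, Ifi44, Bst2, Ifitm3 and the Schlafen and Apol9 genes. The genes were chosen by symbol from a list of known effectors, and all 38 were found in each of 5 deposited tables, of 16399 gene symbols over the tables. Nucleic acid sensors, PARPs, other interferon-induced GTPases and TRIM proteins are not among them. The cultures came from MC38 tumours, a mouse colon carcinoma line grown in C57BL/6 albino mice. Dissociated tumour pieces of 40 to 100 µm were set in collagen at 2.8 mg/mL in DAX-1 chips, small microfluidic devices for 3-D culture, and 300 µL of medium with the agent was added per well. After 6 days RNA was taken from 3 samples of each of 4 groups. The aPD-1 group received a PD-1 antibody (clone RMP1-14, 10 µg/mL). The aPD-1+CD8 group received that antibody with a CD8 antibody (clone 53-6.7, 10 µg/mL of each). The IFNg group received interferon-gamma protein at 100 ng/mL, and the labels name no antibody for its wells. The IgG group, the control, received an antibody of clone 2A3 at 10 µg/mL. PD-1 restrains activated T cells and CD8 is carried by cytotoxic T cells, but whether the CD8 antibody depleted its targets is not stated in the labels. The samples therefore hold MC38 cells with whatever host cells lived through culture, and in such bulk RNA fewer cells of a type and less RNA per cell cannot be told apart.

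Type I interferons bind the IFNAR receptor, whose kinases JAK1 and TYK2 activate transcription factors. A complex that includes STAT2 and IRF9 binds the interferon-stimulated response element (ISRE) in promoters and switches on genes that degrade, sequester or modify viral RNA and protein. Interferon-gamma uses a receptor of its own, and its signal reaches promoters through the gamma-activated site (GAS). Many antiviral effectors answer to both, in part through IRF1, a transcription factor that interferon-gamma induces. In tumours these genes are widely used as a readout of interferon exposure.

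Only the authors' comparison tables were used, which give for each gene a mean normalized count over both groups, a log2 fold change (the first named group relative to the second) with its standard error (SE), and p-values from DESeq2. They hold no values of single samples, so the overlap between samples of different groups was not seen. The fold changes look shrunken toward 0, by different amounts in different tables, and so understate changes of genes with low counts and of some with higher counts. To show how much of each transcript each group held, the mean normalized counts of the 5 tables were solved for the 4 groups. These group levels carry no error, and they are imprecise for the 11 of 38 genes whose aPD-1 level came out under 10. For the 38 genes the IFNg level could be found by way of either of a pair of tables, and the answers differed by a median of 0.870% and by at most 1.17%. The levels of aPD-1, aPD-1+CD8 and IgG were found by only 1 route. A gap that is small beside the IFNg level need not be small beside a low aPD-1 level. For Ifit3 these levels were 332 with IFNg and 3.22 with aPD-1. Summed mean normalized counts ran from 10292941 to 11590748 over the tables; the depth of each library is not known. The labels do not tell whether the samples within a group derive from different mice or cultures, so the p-values speak to variation among these 3 samples per group, which may be technical.

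The promoters are shown first because the ISRE is the element through which type I interferons switch on target genes, though not every member's window holds its core. RefSeq windows (GRCm38.p6, 250 bases before to 50 after the transcript start) were at hand for 32 of the 38 genes. Usp18, Mx1, Mx2, Oas2, Rtp4 and Ifi27 had no entry. Some genes have several starts and so several windows, and a match in any of them counted. The ISRE core, GAAA followed after any 2 bases by GAAA again and searched on both strands, was present for 14 of the 32 genes (43.8%), against 1079 of 27025 genes with such a window (3.99%). A longer core that adds a final C was present for 10 of the 32 genes (31.2%), against 0.944% of all genes. The GAS core TTCNNNGAA was present for 6 of the 32 genes (18.8%), against 9.55% of all genes. The windows below cover 150 bases before to 30 after the start, 5′ to 3′ on the gene's own strand. Capitals mark matches to the ISRE core or, where it lies on the other strand, to its reverse complement. Ifit1, Isg15, Oas3, Apol9a and Apol9b fell with aPD-1 and rose with the CD8 antibody. Ddx60 has matches but its aPD-1 difference did not pass the test. Ifitm3 moved the other way. Ifi44 had the largest fall of the 38 genes, and its window holds none of these exact letters.
Ifit1, chr19:34640739-34640918, plus strand: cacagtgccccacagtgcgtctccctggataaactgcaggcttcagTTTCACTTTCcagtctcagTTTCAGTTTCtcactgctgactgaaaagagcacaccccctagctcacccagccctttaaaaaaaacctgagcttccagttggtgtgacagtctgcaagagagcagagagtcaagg
Isg15, chr4:156200789-156200968, minus strand: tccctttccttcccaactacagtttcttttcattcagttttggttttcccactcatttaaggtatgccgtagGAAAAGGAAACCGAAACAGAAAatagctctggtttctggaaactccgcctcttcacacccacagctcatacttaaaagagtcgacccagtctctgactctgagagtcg
Oas3, chr5:120777630-120777809, minus strand: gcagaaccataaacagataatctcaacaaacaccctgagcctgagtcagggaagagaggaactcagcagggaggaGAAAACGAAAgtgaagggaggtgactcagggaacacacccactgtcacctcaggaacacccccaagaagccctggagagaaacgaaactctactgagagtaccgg
Apol9a, chr15:77411051-77411230, minus strand: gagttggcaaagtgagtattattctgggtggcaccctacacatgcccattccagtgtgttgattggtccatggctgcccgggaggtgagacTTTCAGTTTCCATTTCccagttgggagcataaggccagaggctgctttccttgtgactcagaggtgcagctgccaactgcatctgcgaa
Apol9b, chr15:77728922-77729101, plus strand: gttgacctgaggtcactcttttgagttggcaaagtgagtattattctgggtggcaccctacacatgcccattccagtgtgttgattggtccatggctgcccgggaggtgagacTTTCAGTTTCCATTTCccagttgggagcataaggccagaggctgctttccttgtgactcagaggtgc
Ddx60, chr8:61927937-61928116, plus strand: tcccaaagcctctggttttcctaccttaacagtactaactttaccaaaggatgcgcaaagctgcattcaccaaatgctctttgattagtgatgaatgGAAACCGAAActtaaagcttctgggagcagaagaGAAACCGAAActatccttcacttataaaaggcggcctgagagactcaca
Ifitm3, chr7:141010715-141010894, minus strand: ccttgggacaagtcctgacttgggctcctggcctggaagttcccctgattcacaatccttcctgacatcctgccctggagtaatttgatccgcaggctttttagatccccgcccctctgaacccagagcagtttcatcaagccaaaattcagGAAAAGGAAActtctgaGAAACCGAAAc
Ifi44, chr3:151749881-151750060, minus strand: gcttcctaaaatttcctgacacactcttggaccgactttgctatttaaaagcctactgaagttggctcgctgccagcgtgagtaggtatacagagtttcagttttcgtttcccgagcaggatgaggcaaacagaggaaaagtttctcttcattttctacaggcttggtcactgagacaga

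Counting the first base of the transcript as 1, the 3 overlapping matches of Isg15 begin at -78, -72 and -66 and form 1 run. Those of Ifit1 begin at -104 and -85, and the match of Oas3 begins at -75. The matches of Ifitm3 begin at 3 and 20, within the transcript. Apol9a and Apol9b carry the same overlapping pair of matches in nearly the same sequence, so reads of these 2 genes may have been split between them and their separate values are uncertain. These are matches of letters, not sites shown to be bound.

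With the PD-1 antibody alone, the antiviral effectors were mostly lower than with control IgG. By the authors' deposited table, 25 of the 38 genes fell and 1 rose at an adjusted p under 0.05, where 10.0% of the 12024 genes tested fell, 8.50% rose and 18.5% changed in all. The median log2 fold change over the 38 genes in that deposited table was -1.11, against 0.01 over all genes tested. Group levels were below IgG for 36 of the 38 genes, and aPD-1 was the lowest of the 4 groups for 35. The median level of the 38 genes was 14.1 with aPD-1, 35.1 with aPD-1+CD8, 142 with IFNg and 38.1 with IgG, in mean normalized counts. When the spread of all scores in the table was taken as the null in place of the theoretical one, 9 of the 38 genes passed (background 4.35%), namely AI607873, Apol9a, Bst2, Ifi44, Ifit1, Oas2, Oas3, Oasl2 and Samd9l. Fibroblast marker genes moved with this comparison, with a summed level of 9811 with aPD-1 and 3184 with IgG, most of it Col1a1, Col3a1 and Dcn. Of the 11 listed, 4 rose and 0 fell in the authors' deposited table. In level, Pdgfrb (526 with aPD-1 and 631 with IgG) and Fap (27.3 with aPD-1 and 40.1 with IgG) went the other way. The part of these markers in the result was not tested.

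**Figure D1:**
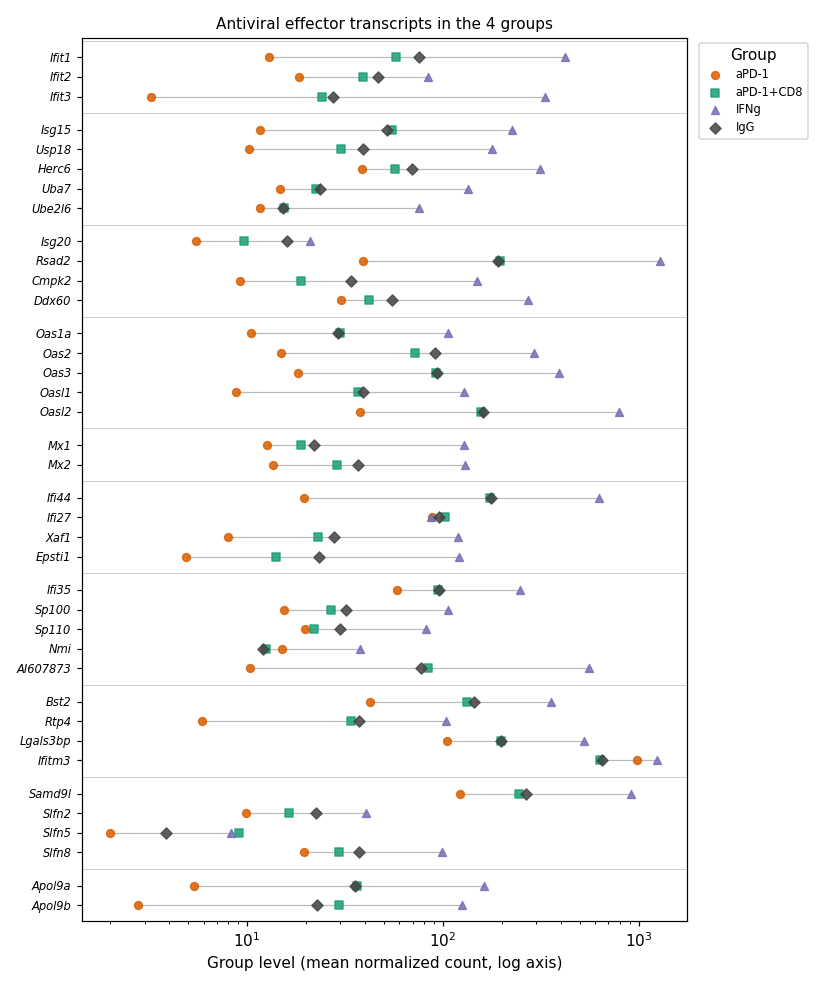
Group levels of the 38 antiviral effectors in mean normalized counts on a log axis, by role from top to bottom, with 1 symbol per group (aPD-1, aPD-1+CD8, IFNg, IgG) and no error, since the deposited tables hold none for single groups. The aPD-1 level is the lowest of the 4 for 35 genes and the IFNg level the highest for 36, while aPD-1+CD8 lies near IgG for most.

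All 3 IFIT genes, whose proteins bind RNA that lacks the cap marks of host transcripts, fell. Ifit1 stood at 13.0 with aPD-1, 57.5 with aPD-1+CD8, 423 with IFNg and 75.4 with IgG (levels in mean normalized counts, as below). Its deposited log2 fold change in the authors' deposited table for aPD-1 against IgG was -2.12 ± 0.33 (SE, adjusted p = 5.9e-09). Ifit3 had levels of 3.22 with aPD-1, 24.2 with aPD-1+CD8, 332 with IFNg and 27.4 with IgG, and it fell by 1.92 ± 0.40 on the log2 scale of the authors' deposited table (adjusted p = 3.4e-05). Ifit2 was at 18.3 with aPD-1, 38.9 with aPD-1+CD8, 84.1 with IFNg and 46.8 with IgG, with a fall of 1.11 ± 0.33 in the authors' deposited table (adjusted p = 0.00587). The aPD-1 level was 17.2% of the IgG level for Ifit1, 11.8% for Ifit3 and 39.1% for Ifit2.

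Of the 5 genes of the ISG15 pathway, 3 fell. ISG15 is a ubiquitin-like protein that is attached to other proteins and also secreted. Isg15 was at 11.7 with aPD-1, 54.9 with aPD-1+CD8, 226 with IFNg and 51.9 with IgG, and its change in the authors' deposited table was -1.68 ± 0.36 (log2 ± SE, adjusted p = 5.6e-05). Usp18, which removes ISG15 from proteins and restrains the IFNAR receptor, was at 10.2 with aPD-1, 30.2 with aPD-1+CD8, 179 with IFNg and 39.2 with IgG. It fell by 1.33 ± 0.39 in the authors' deposited table (adjusted p = 0.00639). Herc6, the main ISG15 ligase of mice, was at 38.8 with aPD-1, 56.8 with aPD-1+CD8, 312 with IFNg and 69.8 with IgG and fell by 0.77 ± 0.28 in the authors' deposited table (adjusted p = 0.0357). The activating enzyme Uba7 and the conjugating enzyme Ube2l6 did not pass: the authors' deposited table has -0.51 ± 0.37 for Uba7 (adjusted p = 0.393) and -0.29 ± 0.39 for Ube2l6 (adjusted p = 0.694). Uba7 was at 14.7 with aPD-1 and 23.5 with IgG, and Ube2l6 at 11.6 with aPD-1 and 15.2 with IgG.

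All 5 OAS genes fell, by between 1.12 and 2.24 in the authors' deposited table. OAS proteins sense viral RNA, and the active members make oligoadenylates that turn on RNase L, which cuts RNA. Oas2 was at 15.0 with aPD-1, 72.3 with aPD-1+CD8, 293 with IFNg and 90.8 with IgG. It fell by 2.24 ± 0.31 (adjusted p = 4.6e-11) in the authors' deposited table. Oas3 was at 18.3 with aPD-1, 92.7 with aPD-1+CD8, 393 with IFNg and 93.1 with IgG, and the same deposited table of the authors gives -1.99 ± 0.33 (adjusted p = 3.4e-08). Oasl2 was at 37.8 with aPD-1, 157 with aPD-1+CD8, 793 with IFNg and 160 with IgG, so that aPD-1+CD8 lay close to IgG and aPD-1 far below both. It fell by 1.91 ± 0.27 in the authors' deposited table (adjusted p = 5.4e-11). Oasl1 fell by 1.65 ± 0.36 (adjusted p = 9.2e-05) and Oas1a by 1.12 ± 0.36 (adjusted p = 0.0146) in the authors' deposited table. Their levels were 8.83 with aPD-1 and 39.0 with IgG for Oasl1, and 10.5 with aPD-1 and 29.0 with IgG for Oas1a.

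Among genes of nucleotide and RNA metabolism, Rsad2 and Cmpk2 fell, and Isg20 and Ddx60 did not pass. Rsad2 encodes viperin, which turns CTP into a chain terminator of viral polymerases, and Cmpk2 is its neighbour in the genome and a mitochondrial nucleotide kinase. Rsad2 was at 39.0 with aPD-1, 197 with aPD-1+CD8, 1281 with IFNg and 190 with IgG, with -1.19 ± 0.41 in the authors' deposited table (adjusted p = 0.027). Cmpk2 was at 9.17 with aPD-1, 18.9 with aPD-1+CD8, 149 with IFNg and 34.0 with IgG, with -1.42 ± 0.37 in the authors' deposited table (adjusted p = 0.00155). The exonuclease gene Isg20 was at 5.47 with aPD-1 and 15.9 with IgG, and the authors' deposited table gives -0.96 ± 0.40 (adjusted p = 0.0786). The helicase gene Ddx60 was at 30.3 with aPD-1 and 54.8 with IgG, and the authors' deposited table gives -0.73 ± 0.33 (adjusted p = 0.108). Of the Mx GTPases, Mx2 fell by 1.10 ± 0.37 (adjusted p = 0.0194) while Mx1 had -0.57 ± 0.39 (adjusted p = 0.355) in the authors' deposited table. Mx2 was at 13.6 with aPD-1 and 36.9 with IgG, and Mx1 at 12.7 with aPD-1 and 21.9 with IgG. RefSeq lists both Mx genes as transcribed pseudogenes in the C57BL/6J reference, so these values are of RNA that may not give a working protein.

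The largest fall of all 38 genes was that of Ifi44, a cytoplasmic interferon-induced protein. It was at 19.4 with aPD-1, 174 with aPD-1+CD8, 626 with IFNg and 176 with IgG, and it fell by 2.83 ± 0.29 in the authors' deposited table (adjusted p = 7.8e-20). Xaf1, a partner of the apoptosis inhibitor XIAP, fell by 1.32 ± 0.37 (adjusted p = 0.00332) and Epsti1 by 1.48 ± 0.40 (adjusted p = 0.00207) in the authors' deposited table. Their levels were 8.00 with aPD-1 and 27.9 with IgG for Xaf1, and 4.87 with aPD-1 and 23.4 with IgG for Epsti1. Ifi27, a small interferon-induced membrane protein, lay between 86.8 and 102 in all 4 groups, and its change in the authors' deposited table was -0.13 ± 0.24 (adjusted p = 0.794).

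In the group of nuclear body and adaptor proteins, 2 of 5 fell. AI607873, which RefSeq names Ifi207 and which belongs to the PYHIN family of DNA-binding proteins, was at 10.3 with aPD-1, 84.1 with aPD-1+CD8, 555 with IFNg and 77.2 with IgG. It fell by 2.37 ± 0.34 in the authors' deposited table (adjusted p = 7.6e-11). Ifi35 fell by 0.68 ± 0.25 (adjusted p = 0.0434) in the authors' deposited table, with 58.1 in aPD-1 and 95.6 in IgG cultures. Its binding partner Nmi was higher in level with aPD-1 (15.0) than with IgG (12.1) but did not pass, at 0.21 ± 0.39 in the authors' deposited table (adjusted p = 0.792). The PML body genes Sp100 and Sp110 did not pass either: the authors' deposited table has -0.85 ± 0.35 for Sp100 (adjusted p = 0.0699) and -0.47 ± 0.34 for Sp110 (adjusted p = 0.4).

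Membrane and secreted effectors held the 1 gene that rose. Ifitm3, which blocks the fusion of viruses with endosomes, was at 980 with aPD-1, 637 with aPD-1+CD8, 1239 with IFNg and 649 with IgG, and it rose by 0.54 ± 0.18 in the authors' deposited table (adjusted p = 0.0159). This call was lost at an adjusted p of 0.01, with a log2 change of at least 1 and with the wider null. Bst2, or tetherin, which holds budding virus at the cell surface, was at 42.6 with aPD-1, 133 with aPD-1+CD8, 355 with IFNg and 144 with IgG and fell by 1.58 ± 0.28 in the authors' deposited table (adjusted p = 4.1e-07). Rtp4, a chaperone of receptors in the Golgi, was at 5.87 with aPD-1 and 37.2 with IgG, with -1.88 ± 0.39 in the authors' deposited table (adjusted p = 2.3e-05). The secreted glycoprotein gene Lgals3bp was at 105 with aPD-1 and 198 with IgG, with -0.88 ± 0.23 in the authors' deposited table (adjusted p = 0.00209).

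Of the Schlafen and SAMD9 family, Samd9l, a restriction factor of poxviruses, fell, and the 3 Schlafen genes did not pass. Samd9l was at 122 with aPD-1, 245 with aPD-1+CD8, 915 with IFNg and 265 with IgG, and fell by 1.08 ± 0.19 in the authors' deposited table (adjusted p = 2.7e-07). The authors' deposited table has -0.89 ± 0.38 for Slfn2 (adjusted p = 0.0889), -0.74 ± 0.36 for Slfn8 (adjusted p = 0.152) and -0.33 ± 0.39 for Slfn5 (adjusted p = 0.643). Slfn5 had the lowest counts of the 38 genes, with levels of 1.99 with aPD-1 and 3.84 with IgG. Both Apol9 genes, interferon-induced apolipoprotein L genes of mice, fell, Apol9a by 1.97 ± 0.37 (adjusted p = 2.6e-06) and Apol9b by 1.81 ± 0.41 (adjusted p = 1.3e-04) in the authors' deposited table. Apol9a was at 5.35 with aPD-1 and 35.6 with IgG, and Apol9b at 2.76 with aPD-1 and 22.7 with IgG. The 12 genes that did not pass lay in 6 of the 10 role groups, and every IFIT, OAS and Apol9 gene fell.

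**Figure D2:**
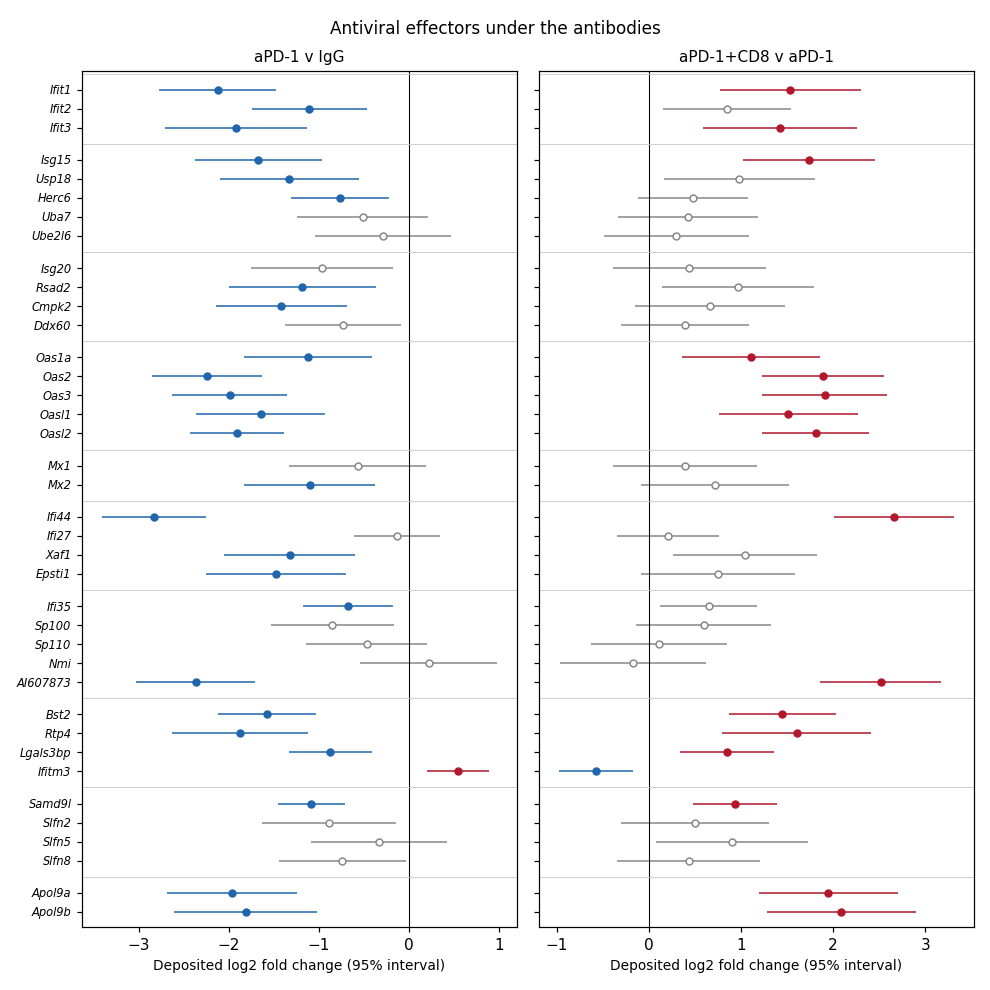
Deposited log2 fold change (x axis) with its 95% interval (1.96 SE) for each antiviral effector in aPD-1 against IgG (left) and aPD-1+CD8 against aPD-1 (right); filled points passed an adjusted p of 0.05, blue lower and red higher, and open points did not. On the left 25 genes are blue and Ifitm3 is red; on the right 16 are red and Ifitm3 is blue, and both panels share the aPD-1 libraries.

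When the CD8 antibody was added to the PD-1 antibody, many of the same effectors stood higher than with the PD-1 antibody alone. By the authors' deposited table, 16 of the 38 genes rose and 1 fell, against 7.82% of the 11560 genes tested that rose, 6.94% that fell and 14.8% that changed in all. The median log2 fold change of the 38 genes was 0.88 in that deposited table of the authors. This comparison shares the aPD-1 libraries with aPD-1 against IgG, so opposite signs in the 2 comparisons are not independent. With the spread of all scores as the null, 7 genes passed (background 3.41%), namely AI607873, Apol9a, Apol9b, Ifi44, Oas2, Oas3 and Oasl2. Fibroblast marker genes summed to a level of 2904 with aPD-1+CD8 and 9811 with aPD-1, and 3 of the 11 listed fell (Col3a1, Dcn and Pdgfra) and 0 rose in the authors' deposited table; their part in the result was not tested.

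The 16 genes that rose with the CD8 antibody were Ifit1, Ifit3, Isg15, the 5 OAS genes, Ifi44, AI607873, Bst2, Rtp4, Lgals3bp, Samd9l, Apol9a and Apol9b. Each of them is among the 25 that were lower in aPD-1 than in IgG cultures. Ifi44 rose by 2.66 ± 0.33 (adjusted p = 9.7e-14) and AI607873 by 2.52 ± 0.33 (adjusted p = 4.5e-12) in the authors' deposited table. The OAS genes rose by between 1.11 (Oas1a, adjusted p = 0.0297) and 1.91 (Oas3, adjusted p = 1.6e-06) in the authors' deposited table. Apol9b rose by 2.09 ± 0.41 (adjusted p = 1.3e-05) and Apol9a by 1.95 ± 0.39 (adjusted p = 1.4e-05) in the authors' deposited table. Isg15 rose by 1.74 ± 0.37 (adjusted p = 5.8e-05), Ifit1 by 1.53 ± 0.39 (adjusted p = 0.00143) and Ifit3 by 1.42 ± 0.43 (adjusted p = 0.00898) in the authors' deposited table. Rtp4 rose by 1.60, Bst2 by 1.45, Samd9l by 0.94 and Lgals3bp by 0.85 (adjusted p = 0.011) in the authors' deposited table.

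The other 9 genes that were lower with aPD-1 did not pass in this comparison, although each had a positive value. They were, in the authors' deposited table, Xaf1 (1.04 ± 0.40, adjusted p = 0.0599), Usp18 (0.98 ± 0.42, adjusted p = 0.0983), Rsad2 (0.96 ± 0.42, adjusted p = 0.113), Ifit2 (0.85 ± 0.35, adjusted p = 0.0911) and Epsti1 (0.75 ± 0.43, adjusted p = 0.267). The remaining values in the authors' deposited table were 0.72 for Mx2, 0.66 for Cmpk2, 0.65 for Ifi35 and 0.48 for Herc6. Rsad2 had a level of 197 with aPD-1+CD8 and 39.0 with aPD-1, a wider gap than that of Oasl2 (157 with aPD-1+CD8 and 37.8 with aPD-1), yet only Oasl2 passed, with SEs of 0.42 for Rsad2 and 0.30 for Oasl2 in the authors' deposited table. Ifitm3 again went the other way and fell by 0.58 ± 0.21 (adjusted p = 0.0384) in the authors' deposited table. That call was lost at an adjusted p of 0.01, with a log2 change of at least 1, with the wider null and when the adjustment ran over every gene with a p-value.

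Between aPD-1+CD8 and IgG none of the 38 genes passed. In the authors' deposited table for this pair no gene of 15304 passed at an adjusted p under 0.05 (DESeq2), a background of 0%. At an unadjusted p under 0.05 the same deposited table of the authors gives 0 of the 38 genes and 57 of all genes (0.372%). That share is far below the 0.05 that p-values give on average where no gene differs. In this pair the test thus seldom passed any gene, and its lack of calls does not show equal levels. The smallest unadjusted p among the 38 genes in the authors' deposited table was 0.0829, and the 95% bounds of their log2 fold changes ran from -0.34 to 0.26, on a scale that is strongly shrunken (all SEs at or below 0.110). The levels show the unshrunken means: 25 of the 38 genes lay between 0.8 and 1.25 of their IgG level with aPD-1+CD8, and 27 were below it. Ifi44 was at 174 with aPD-1+CD8 and 176 with IgG, Oas3 at 92.7 with aPD-1+CD8 and 93.1 with IgG, and Lgals3bp at 198 with both. The lowest shares of IgG with aPD-1+CD8 were 55.6% for Cmpk2, 59.7% for Epsti1 and 60.6% for Isg20. The highest was 236% for Slfn5, at levels of 9.07 with aPD-1+CD8 and 3.84 with IgG. Without sample values, whether such gaps exceed the spread within groups was not tested outside the deposited test.

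Added interferon-gamma gave the highest levels of nearly all these genes. By the authors' deposited table, 33 of the 38 genes rose and 0 fell against IgG, where 2.73% of the 11478 genes tested rose, 1.38% fell and 4.10% changed in all. The median log2 fold change of the 38 genes in the authors' deposited table was 1.50. IFNg was the highest of the 4 groups for 36 genes, all but Ifi27 and Slfn5, and above IgG for 37. Macrophage marker genes summed to a level of 902 with IFNg and 531 with IgG, of which Csf1r made up 367 with IFNg and 27.0 with IgG and Cd74 made up 198 with IFNg and 11.3 with IgG. Csf1r had no p-value for this pair in the authors' deposited table, so its higher level has no test behind it. Of the 21 listed macrophage markers 1 rose (Cd74) and 2 fell (Mrc1 and Mertk) in the authors' deposited table. Fibroblast markers summed to 3060 with IFNg and 3184 with IgG, yet 2 of the 11 listed rose and 3 fell in the authors' deposited table. In level, Dcn was at 1057 with IFNg and 625 with IgG, and Col1a1 at 405 with IFNg and 905 with IgG. The part of these macrophage and fibroblast markers in the result was not tested. Ifit3 rose most, by 2.92 ± 0.21 (adjusted p = 1.5e-40) in the authors' deposited table, with a level 12.1 times that of IgG. AI607873 rose by 2.38 ± 0.20 (adjusted p = 1.8e-28), Rsad2 by 2.31 ± 0.20 (adjusted p = 6.5e-27) and Ifit1 by 2.19 ± 0.18 (adjusted p = 8.6e-32) in the authors' deposited table.

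The enzymes of ISG15 conjugation, of which 2 had not passed with aPD-1, all rose with IFNg. Uba7, in the authors' deposited table, rose by 1.87 ± 0.24 (adjusted p = 1.1e-12), Herc6 by 1.85 ± 0.19 (adjusted p = 3.0e-19) and Ube2l6 by 1.65 ± 0.25 (adjusted p = 4.9e-09). Uba7 was at 135 with IFNg and 23.5 with IgG, and Ube2l6 at 76.0 with IFNg and 15.2 with IgG. Oasl2 rose by 2.12 ± 0.15 (adjusted p = 1.9e-42) in the authors' deposited table, the largest rise among the 5 OAS genes, of which Oasl1 had the smallest at 1.20 ± 0.26 (adjusted p = 1.8e-04). Mx1 rose by 1.39 ± 0.28 (adjusted p = 4.2e-05), Sp100 by 1.33 ± 0.23 (adjusted p = 7.0e-07) and Ddx60 by 1.81 ± 0.23 (adjusted p = 7.3e-13) in the authors' deposited table, none of which had passed with aPD-1. Slfn8 (1.11 ± 0.23), Sp110 (1.09 ± 0.24) and Nmi (0.89 ± 0.28, adjusted p = 0.0385) were in the same case in the authors' deposited table. Ifitm3 rose by 0.85 ± 0.14 (adjusted p = 1.2e-07) in the authors' deposited table, so it is the 1 gene of the 38 that passed as higher than IgG both with aPD-1 and with IFNg.

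The 5 genes that did not pass against IgG were Ifit2, Isg20, Ifi27, Slfn2 and Slfn5. In the authors' deposited table Ifit2 had 0.66 ± 0.23 (adjusted p = 0.0859), Slfn2 had 0.57 ± 0.26 (adjusted p = 0.318) and Slfn5 had 0.31 ± 0.26 (adjusted p = 0.766). Isg20 had 0.21 ± 0.28 (adjusted p = 0.909) and Ifi27 had -0.12 ± 0.22 (adjusted p = 0.943) in the authors' deposited table. Ifit2 thus parted from its family: its IFNg level was 84.1, against 46.8 with IgG, while Ifit1 had 423 with IFNg and 75.4 with IgG. The difference between the family members was not tested.

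**Figure D3:**
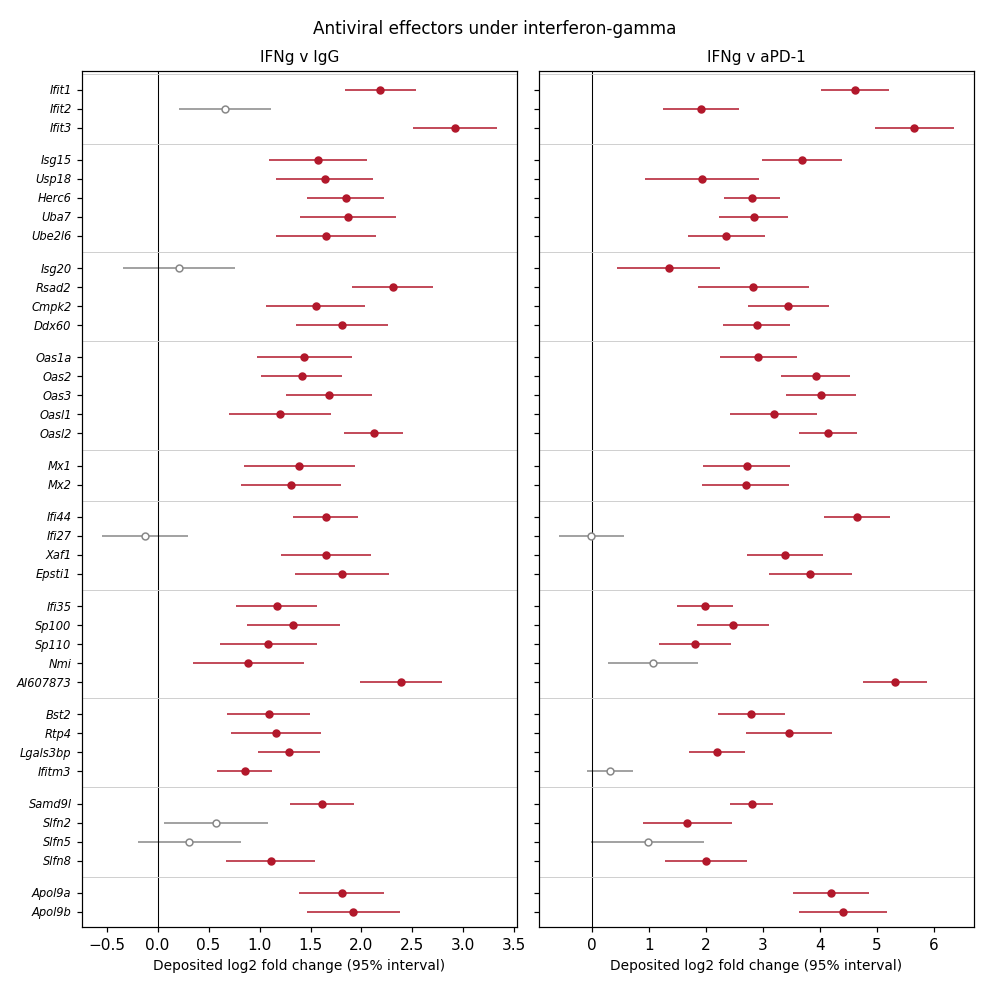
Deposited log2 fold change (x axis) with its 95% interval (1.96 SE) for each antiviral effector in IFNg against IgG (left) and IFNg against aPD-1 (right); filled red points passed an adjusted p of 0.05 and open points did not. 33 genes passed on the left and 34 on the right, none of them lower; both panels share the IFNg libraries.

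Set against the PD-1 antibody, IFNg cultures held more of 34 of the 38 genes and less of none. The authors' deposited table for this pair has 8.39% of the 12260 genes tested higher, 7.13% lower and 15.5% changed in all. The median log2 fold change of the 38 genes in the authors' deposited table was 2.82. Ifit3 was at 5.66 ± 0.35 (adjusted p = 1.5e-54), AI607873 at 5.32 ± 0.28 (adjusted p = 2.1e-75), Ifi44 at 4.65 ± 0.29 (adjusted p = 1.9e-53) and Ifit1 at 4.61 ± 0.30 (adjusted p = 4.7e-50) in the authors' deposited table. Ifit2 (1.91 ± 0.34), Slfn2 (1.67 ± 0.40) and Isg20 (1.34 ± 0.46, adjusted p = 0.0281) passed here though not against IgG in the authors' deposited table. Not passing were Nmi (1.07 ± 0.40, adjusted p = 0.0517), Slfn5 (0.97 ± 0.51, adjusted p = 0.204), Ifitm3 (0.32 ± 0.20, adjusted p = 0.348) and Ifi27 (-0.02 ± 0.29, adjusted p = 0.986) in the authors' deposited table. This pair shares its libraries with both aPD-1 against IgG and IFNg against IgG. The summed level of the fibroblast markers was 3060 with IFNg and 9811 with aPD-1, with 5 of the 11 listed lower and 0 higher in the authors' deposited table, and their part in the result was not tested.

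**Figure D4:**
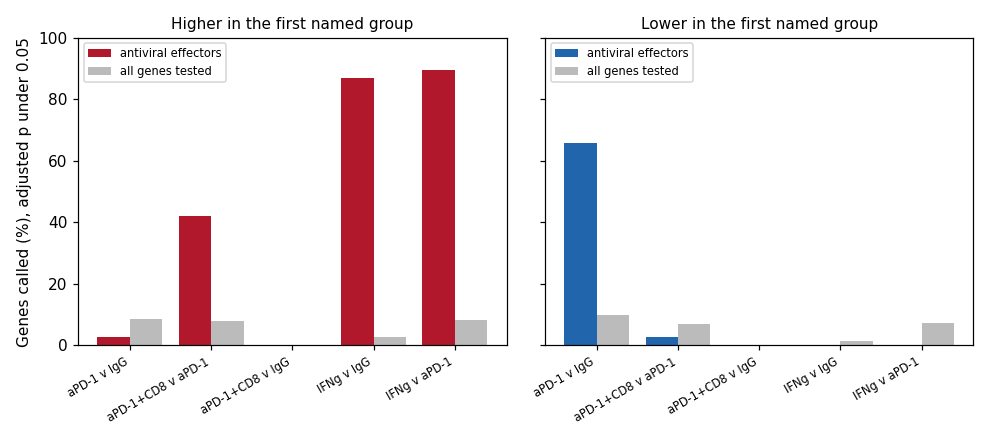
Percentage of genes past an adjusted p of 0.05 in each of the 5 deposited comparisons, higher (left panel) or lower (right panel) in the first named group, for the 38 antiviral effectors (coloured bars) and for all genes tested (grey bars). The effectors exceed the grey bar in the lower panel for aPD-1 against IgG (65.8% against 10.0%) and in the higher panel for the comparisons with IFNg and for aPD-1+CD8 against aPD-1.

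Across the groups the genes fell into a few patterns of calls. The same 16 genes were lower in aPD-1 than in IgG, higher in aPD-1+CD8 than in aPD-1, and higher in IFNg than in either IgG or aPD-1. A further 8 (Usp18, Mx2, Rsad2, Cmpk2, Ifi35, Xaf1, Herc6 and Epsti1) differed from these only in not passing for aPD-1+CD8 against aPD-1. For 7 genes (Mx1, Sp100, Sp110, Uba7, Ddx60, Ube2l6 and Slfn8) only the comparisons with IFNg passed. Ifi27 and Slfn5 passed in none. Most of these comparisons share libraries, so the calls of a pattern are not independent. The share of all genes with each pattern was not computed. Whether a gene's change differed between comparisons was not tested. Levels ran in the order IFNg, IgG, aPD-1+CD8 and aPD-1 from high to low for 26 of the 38 genes, though for many of these IgG and aPD-1+CD8 lay close, and no test separated them. For 34 genes both IgG and aPD-1+CD8 lay between aPD-1 and IFNg.

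The promoter motif was set beside these changes. Among the 32 genes with a window, the 14 with an ISRE core had a median log2 fold change of -1.63 for aPD-1 against IgG in the authors' deposited table, with 10 lower and 1 higher. The 18 without it had a median of -0.92 in the authors' deposited table, with 11 lower. For IFNg against IgG the medians in the authors' deposited table were 1.74 with the core and 1.44 without. These are descriptions with no test. Members without the core include Ifi44, Oasl2 and Samd9l, which fell with aPD-1, and members with it include Ddx60, Slfn5 and Slfn8, which did not pass.

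The genes that carry the interferon signal were taken from a list of 43 ligands, receptors, signalling proteins and inhibitors, of which 25 were listed in at least 1 table. Of the 20 ligands in the list only Ifne and Ifnz were listed, neither with an adjusted p outside aPD-1+CD8 against IgG, and the other ligands are not analysed here. In the authors' deposited table for aPD-1 against IgG, 6 of the 24 listed genes rose and 2 fell, with an adjusted p for 22 of them. Of all genes tested 8.50% rose and 10.0% fell, so falls among pathway genes were about as frequent as over all genes. The type I receptor chain Ifnar1 was at 151 with aPD-1, 76.3 with aPD-1+CD8, 64.0 with IFNg and 76.5 with IgG, and rose by 0.87 ± 0.24 with aPD-1 in the authors' deposited table (adjusted p = 0.00248). The interferon-gamma receptor chain Ifngr1 rose by 0.79 ± 0.25 (adjusted p = 0.0131) and Il10rb, a chain of the interferon-lambda and IL-10 receptors, by 1.23 ± 0.30 (adjusted p = 4.5e-04) in the authors' deposited table. By the authors' deposited table neither Ifnar2 (0.67 ± 0.31, adjusted p = 0.119) nor Ifngr2 (0.56 ± 0.28, adjusted p = 0.173) passed. So 3 receptor chains passed as higher while most effectors were lower. With the spread of all scores as the null only 2 pathway genes rose and 1 fell, and no receptor chain was among them.

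Of the signalling proteins, Jak2, a kinase of the interferon-gamma receptor, rose by 1.07 ± 0.19 with aPD-1 in the authors' deposited table (adjusted p = 8.9e-07). The kinases of the type I receptor did not pass: the authors' deposited table has 0.07 ± 0.12 for Jak1 and -0.02 ± 0.36 for Tyk2. Of the factors that act at the ISRE, Irf9 fell by 1.18 ± 0.22 (adjusted p = 1.9e-06), while Stat2 had -0.36 ± 0.23 (adjusted p = 0.318), in the authors' deposited table. Irf9 was at 73.3 with aPD-1, 182 with aPD-1+CD8, 306 with IFNg and 171 with IgG. Irf7, which amplifies type I interferon, fell by 1.33 ± 0.38 (adjusted p = 0.00477) in the authors' deposited table, while Irf1 rose by 0.42 ± 0.16 (adjusted p = 0.0432). Irf1 and Ifitm3 thus both rose with aPD-1, against Irf9, Irf7 and most effectors. Like that of Ifitm3, the Irf1 call was lost at an adjusted p of 0.01, with a log2 change of at least 1 and with the wider null. Unlike that of Ifitm3, it was also lost with adjustment over every gene with a p-value and with centring on the median.

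Among inhibitors, Socs3, a feedback inhibitor of cytokine receptors best known downstream of STAT3, was at 1080 with aPD-1, 55.6 with aPD-1+CD8, 143 with IFNg and 38.1 with IgG. It rose by 4.47 ± 0.19 (adjusted p = 8.9e-121) in the authors' deposited table. Socs1, the main inhibitor of interferon receptors, had -0.09 ± 0.36 (adjusted p = 0.916) in the authors' deposited table. In aPD-1+CD8 against aPD-1 Socs3 fell by 4.07 ± 0.20, Jak2 by 1.21 ± 0.22, Ifngr1 by 0.92 ± 0.28, Il10rb by 0.90 ± 0.31 and Ifnar1 by 0.88 ± 0.26, and Irf7 rose by 1.30 ± 0.40 and Irf9 by 1.23 ± 0.23 in the authors' deposited table. These 7 were the genes that passed of the 23 listed, of which 21 had an adjusted p. Of all genes tested 7.82% rose and 6.94% fell in this comparison. Between aPD-1+CD8 and IgG 0 of 24 passed in the authors' deposited table, where no gene tested passed.

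With IFNg 7 of the 25 pathway genes rose against IgG and 0 fell in the authors' deposited table: Irf1 (2.48 ± 0.14), Irf7 (1.97 ± 0.22), Stat2 (1.79 ± 0.16), Socs3 (1.16 ± 0.26), Socs1 (1.04 ± 0.26), Irf9 (0.74 ± 0.17) and the repressor Irf2 (0.60 ± 0.16). An adjusted p was at hand for 22 of those 25, and of all genes tested 2.73% rose and 1.38% fell against IgG. Against aPD-1, where 8.39% of all genes tested were higher with IFNg and 7.13% lower, 22 of the 24 listed had an adjusted p. Of these, 6 were higher with IFNg and 5 lower in the authors' deposited table. The higher ones were Irf7 (3.75), Stat2 (2.22), Irf1 (2.17), Irf9 (1.98), Irf5 (1.80) and Socs1 (1.37), and the lower ones Socs3 (-2.74), Il10rb (-1.47), Ifnar1 (-1.16), Ifngr1 (-0.88) and Jak2 (-0.76), all log2 fold changes of the authors' deposited table.

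**Figure D5:**
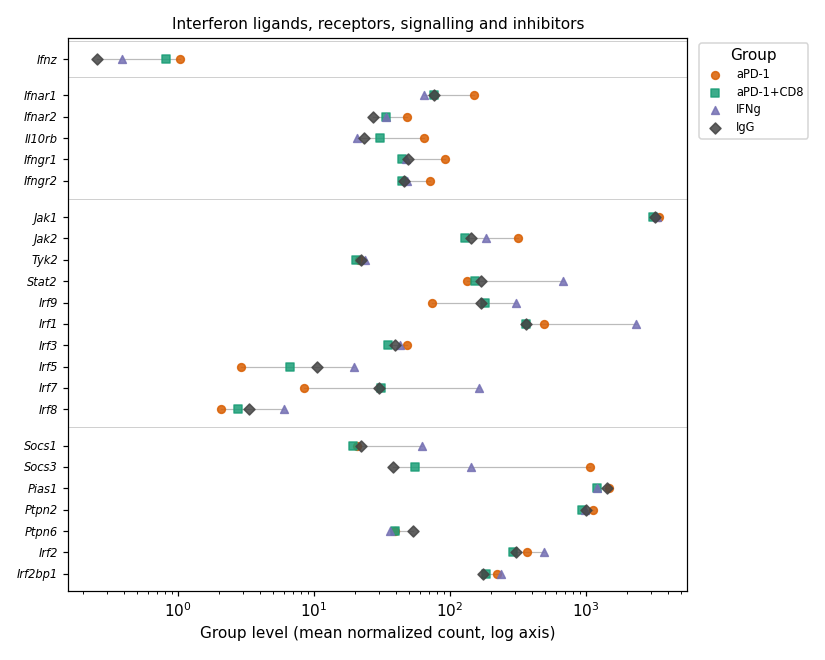
Group levels in mean normalized counts (log axis) of interferon ligands, receptors, signalling proteins and inhibitors that had a level in all 4 groups, with 1 symbol per group and no error. Socs3 is highest with aPD-1 (1080, against 38.1 with IgG), the receptor chains lie to the right with aPD-1, and Stat2, Irf1 and Irf7 are highest with IFNg.

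Marker genes of several cell types moved with some of these groups, and bulk RNA does not show which cells held the transcripts. Epithelial markers, looked up because MC38 is a carcinoma line, were near 0: 6 of 8 were listed for aPD-1 against IgG, with a mean normalized count of at most 3.68 (Krt19) in the authors' deposited table. Macrophage markers, of which 20 of 23 had levels in all groups and 9 a mean of at least 10, summed to 390 with aPD-1, 506 with aPD-1+CD8, 902 with IFNg and 531 with IgG. In the authors' deposited table for aPD-1 against IgG 1 of the 21 listed macrophage markers rose and 1 fell. Csf1r, the receptor that macrophages need to live, was at 20.4 with aPD-1, 27.9 with aPD-1+CD8, 367 with IFNg and 27.0 with IgG, but for IFNg against IgG it has no p-value and a log2 change of only 0.31 in the authors' deposited table. Mrc1, a scavenger receptor, was at 2.06 with IFNg and 24.2 with IgG, and Mertk, a receptor for the uptake of dying cells, at 96.8 with IFNg and 191 with IgG. Fibroblast markers (11 of 12 with levels) summed to 9811 with aPD-1, 2904 with aPD-1+CD8, 3060 with IFNg and 3184 with IgG, and 4 of the 11 listed rose and 0 fell with aPD-1 in the authors' deposited table. For IFNg against IgG 2 of the 11 rose and 3 fell there, though the sums were close. Endothelial markers (7 of 9) summed to 115 with aPD-1, 61.3 with aPD-1+CD8, 96.2 with IFNg and 60.9 with IgG. Only 2 of these 7, Cdh5 and Flt1, had a mean of at least 10. The higher sum with aPD-1 than with IgG came from Cdh5, at 89.95 with aPD-1 and 27.44 with IgG. Flt1 went the other way, at 20.34 with aPD-1 and 29.96 with IgG. Dendritic cell markers (8 of 12) summed to 5227 with aPD-1, 3966 with aPD-1+CD8, 4449 with IFNg and 4331 with IgG, nearly all of it Tcf4, and this list holds the effector Bst2. In the authors' deposited table for aPD-1 against IgG 1 of the 8 rose and 2 fell, Bst2 among the latter. Ccr7 was at 16.8 with aPD-1 and 0.57 with IgG, and Itgax at 2.55 with aPD-1 and 13.7 with IgG. T and NK cell markers were close to 0: 4 of 20 had levels, 3 of them under 1, and the sums were 4.04 with aPD-1, 2.61 with aPD-1+CD8, 12.0 with IFNg and 4.03 with IgG.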

How the data were processed

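RNA of 12 samples, 4 groups of 3 set by the treatment in the labels, was read from 250 ng of total RNA after exome capture, per the labels' protocols. The authors deposited 5 tables of their own comparisons. Per the file headers each deposited table gives a mean normalized count (a signal averaged over both groups), a log2 fold change with its SE, a Wald score and a p-value with its adjusted p-value. Per the submitters' processing notes DESeq2 and the mm9 build were used. The aligner, counter, annotation, use of strand and DESeq2 version were not given in the sources used here. The score equalled the log2 fold change over its SE within 1.4e-13. The deposited tables held 0 columns of single samples, so no model was refitted. SEs stayed small for genes of very low count, which is how shrunken fold changes look: under a mean count of 1 the median SE was 0.175 for aPD-1 against IgG, 0.174 for aPD-1+CD8 against aPD-1, 0.013 for aPD-1+CD8 against IgG, 0.080 for IFNg against IgG and 0.241 for IFNg against aPD-1. Sizes are therefore not on 1 scale across tables.

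A gene was called at an adjusted p under 0.05 as deposited, over all genes with an adjusted p. Intervals are 95% (1.96 SE). Each table's mean count was taken as the mean of its 2 groups and solved for 4 group levels, after rescaling by the median ratio to the aPD-1 v IgG table over 5706 genes with a mean of at least 100 in all tables (factors 1.000, 0.872, 0.901, 0.971 and 0.937). This rescaling was chosen after seeing the data, since a single shared scaling gave a negative level for Socs3. For those 5706 genes the 5th to 95th percentiles of the log2 level ratio minus the deposited log2 fold change lay between -0.082 and 0.099 in every table. Precision rests on the deposited SEs, and levels have no error. The solving was tested on simulated data, with changes in the aPD-1 group alone and scored on genes with a mean of at least 100. It was not tested for low levels. Motifs were searched on both strands in RefSeq promoter windows (GRCm38.p6), matched by symbol or gene ID. Alternatives were stricter thresholds, a mean count minimum of 10, adjustment over every gene, centring on the median, an empirical null from the spread of all scores, and level ratios. Epithelial markers were added after the other lists. Members, gene lists, motifs and tests were chosen with earlier results of these data known. Every member is named at least once. Full values were set for the 3 largest and 3 smallest called changes of each role group in aPD-1 v IgG, for every member against the main direction and for every member that did not pass; of the pathway list, all genes called in any comparison are named. For the pathway, 1 gene is not reported here and was left out of the list and its counts. Python 3.11.15, numpy 2.4.6, pandas 2.3.3, scipy 1.17.1 and matplotlib 3.10.9 were used.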

Additional observations from a re-analysis of the deposited data

How the results depend on the processing

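No paired analysis was possible because the deposited tables hold no columns of single samples, and leaving out each replicate was not run for the same reason. With an empirical null from the spread of all scores, the members called numbered 9 in place of 26 for aPD-1 v IgG and 7 in place of 17 for aPD-1+CD8 v aPD-1. The pathway genes called numbered 3 in place of 8, 3 in place of 7 and, for IFNg v aPD-1, 5 in place of 11 with that null, and 5 in place of 8 and 4 in place of 7 for those first pairs with a log2 change of at least 1. These settings were added for the pathway after seeing the data. The cause was not tested, and no call changed direction. The members' median taken from ratios of group levels was -1.50 in place of -1.11 for aPD-1 v IgG, 1.29 in place of 0.88 for aPD-1+CD8 v aPD-1, 1.85 in place of 1.50 for IFNg v IgG and 3.30 in place of 2.82 for IFNg v aPD-1. With scaling on genes of small change these medians were -1.53, 1.32, 1.84 and 3.31, an alternative chosen after seeing the data. The other settings kept the counts of members and of pathway genes called within 1.5 times. With IFNg 31 members were called under all 7 settings against each of IgG and aPD-1. Shrinkage limits the sizes of low-count genes, and group levels under 10 are imprecise.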

Other observations

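For a few effectors the deposited fold change and the ratio of group levels parted widely. Usp18 had 1.93 ± 0.51 for IFNg against aPD-1 in the authors' deposited table, while its log2 level ratio was 4.13. Rsad2 had 2.83 ± 0.50 in the authors' deposited table and a log2 level ratio of 5.04. Oas2, with a level of 293 with IFNg and 15.0 with aPD-1, had 3.93 ± 0.31 in the authors' deposited table and a log2 level ratio of 4.29, so its values lay closer together. The cause of the gap was not tested.

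IFNg against IgG and aPD-1+CD8 against aPD-1 share no samples. Across the 38 genes the log2 fold changes of these 2 comparisons in the authors' deposited tables had a Pearson r of 0.48 and a Spearman rho of 0.47, and the log2 level ratios had 0.46 and 0.36. Genes are not independent replicates and share libraries and count level within each table, so this is a description with no test.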
